A study of Mus musculus with 4 samples.

Results

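Undifferentiated spermatogonia, the germ cells that include the spermatogonial stem cells, were examined in mouse testicular organoids (TOs) and in mouse testes by droplet single-cell RNA sequencing. A barcode was kept when it held 1000 to 5000 genes, at most 20000 UMIs (unique molecular identifiers, each standing for a captured RNA molecule) and at most 10% of UMIs from mitochondrial genes. A kept barcode was a member when Gfra1, Ret, Zbtb16, Lhx1, Nanos2 and Nanos3 gave at least 3 UMIs with at least 2 of these genes detected, when Dazl and Ddx4 gave at least 2 UMIs, when Stra8, Dmc1 and Meiob gave 0, and when Vim gave at most 1. This rule found 169 members among 41484 kept barcodes, out of 51139 deposited barcodes.

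Both groups had 2 libraries. The TOs were aggregates of dissociated testis cells of early postnatal ICR mice, embedded in basement membrane extract, grown at an air-medium interface with follicle-stimulating hormone and testosterone, and started in a stem cell medium with GDNF and bFGF. TOs were 28 days old by the design text, although the labels' dissociation protocol gives an earlier day, and testes came from mice of 28 days. The labels name no sorting, genetic change or drug in either group. By the study's methods the TO libraries came from independent batches of organoids and the testis libraries were biological replicates, and the number of animals behind each is not stated there or in the labels.

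In the testis, GDNF from somatic cells binds GFRA1 on undifferentiated spermatogonia and signals through the RET receptor, and FGF signalling acts beside it. Cells at the stem end of this population carry Gfra1, Id4 and Etv5, while progenitors closer to differentiation carry Nanos3, Sox3, Upp1, Lin28a and Neurog3. Retinoic acid then starts differentiation, when KIT and STRA8 appear and SOHLH1 takes part in the change.

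TO replicates 1 and 2 held 64 and 17 members, and testis replicates 1 and 2 held 66 and 22. Summed over members, the libraries gave 569807 and 185618 UMIs in the TOs and 407445 and 150268 UMIs in the testes. Members of the TOs were read more deeply, with medians of 9187 and 10958 UMIs per cell against 5935 and 6699 in the testes. Mitochondrial genes took medians of 5.11% and 4.84% of UMIs in TO members and 3.94% and 4.79% in testis members. Between 30 and 55 barcodes were shared by each pair of libraries, 0 barcodes were members in more than 1 library, and 2 member barcodes of testis replicate 1 also occurred in testis replicate 2.

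The share of members among kept barcodes was 0.595% and 0.18% in the TOs (exact 95% binomial intervals 0.458% to 0.759% and 0.105% to 0.287%) and 0.611% and 0.21% in the testes (0.473% to 0.777% and 0.132% to 0.318%). The means were 0.387% ± 0.294 (SD, n = 2) and 0.411% ± 0.283 (SD, n = 2), and replicate 1 stood above replicate 2 in both groups. The exact two-sided permutation test gave p = 0.667, where 0.333 is the smallest value that 2 against 2 libraries allow. Among germ cells, counted as kept barcodes with at least 2 UMIs of Dazl and Ddx4 and at most 1 of Vim, members made up 6.85% and 2.48% in the TOs and 1.71% and 0.737% in the testes. These shares did not overlap between the groups, but with the exact permutation p at its smallest value of 0.333 no difference could be shown. By this rule the testes held 3852 and 2987 germ cells (6839 of 21262 kept barcodes) and the TOs 934 and 686 (1620 of 20222). The study's own clusters held more testis germ cells than this rule found, most of them spermatids, and fewer TO germ cells. The shares among germ cells, above all those of the testes, thus depend on the germ cell rule. The intervals cover counting error only.

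Of the members, 22 had exactly 3 UMIs of the 6 genes, 14 of them in testis replicate 1. Just outside the rule, 43 barcodes that met the other conditions had 2 UMIs in 2 genes, 28 of them in testis replicate 1, and 29 barcodes had at least 3 UMIs in only 1 of the genes. A further 35 barcodes met the gene conditions but exceeded the upper limits on genes or UMIs. No doublets were removed, and Scrublet marked 10 of the 169 members as likely doublets, 4 in TO replicate 1 and 6 in testis replicate 1.

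The genes that chose the members are described without a test. Gfra1, the GDNF co-receptor, had 518 and 291 CPM in TO members and 226 and 319 CPM in testis members, where CPM is the UMIs of a gene scaled to 1000000 UMIs of the members' sum. Ret, its signalling partner, had 162 and 129 CPM against 115 and 160 CPM, and Zbtb16, a transcription factor needed to keep the stem cell pool, had 370 and 291 CPM against 400 and 379 CPM. The libraries of Gfra1 and Ret overlapped between the groups, and Zbtb16 lay slightly lower in both TO libraries. Nanos3, an RNA-binding protein of progenitors, had 10.5 and 5.39 CPM in the TOs and 76.1 and 73.2 CPM in the testes, so that both TO libraries lay below both testis libraries. Lhx1, a GDNF target, had 57.9 and 26.9 CPM against 17.2 and 53.2 CPM, and Nanos2, which represses differentiation, had 7.02 and 10.8 CPM against 17.2 and 13.3 CPM. Dazl had 830 and 1142 CPM in the TOs and 623 and 912 CPM in the testes, and Ddx4 had 332 and 339 CPM against 380 and 353 CPM. In barcodes chosen as Sertoli cells, which should lack it, Gfra1 had a UMI in 3% of 2632 barcodes in TOs and 2.38% of 420 barcodes in testes.

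**Figure D1:**
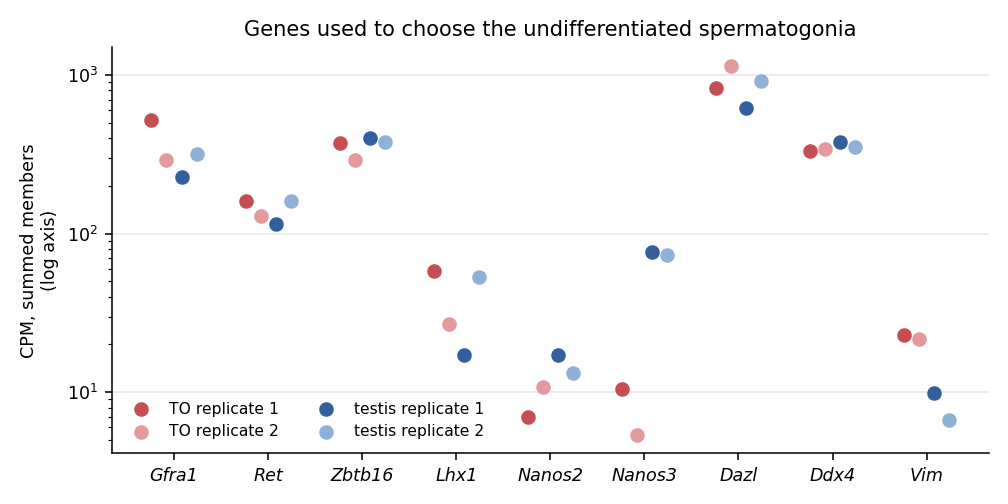
CPM on a log axis, summed over members of each library, for 9 of the 12 genes of the rule (the other 3 are at 0 by the rule). Each point is 1 library. Nanos3 separates the TO points (10.5 and 5.39) from the testis points (76.1 and 73.2), while the points of Gfra1 and Ret overlap.

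The members met the rule by different genes in the 2 groups. A Gfra1 UMI was found in 97.5% of the 81 TO members and 54.5% of the 88 testis members, a Lhx1 UMI in 34.6% and 7.95%, and a Nanos3 UMI in 7.41% and 43.2%. By library, Lhx1 was found in 37.5% and 23.5% of TO members and 4.55% and 18.2% of testis members. Cells with Nanos3 and no Gfra1 numbered 0 in the TOs and 30 in the testes (24 and 6 by library). Thinned to 2500 UMIs per cell, which left out 2 TO members, Gfra1 was found in 68.4% of TO and 34.1% of testis members, Ret in 30.4% and 37.5%, and Nanos3 in 3.8% and 20.5%. These shares describe genes of the rule, and TO members were read more deeply before thinning.

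**Figure D2:**
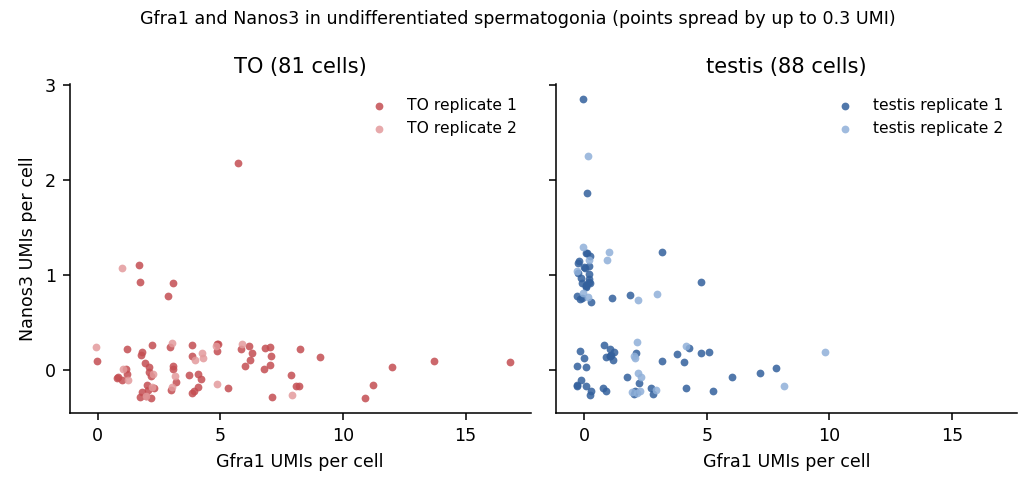
Nanos3 UMIs per cell against Gfra1 UMIs per cell for the 81 TO members and the 88 testis members, 1 point per cell, with random spread added. The column of 30 testis cells with Nanos3 and 0 Gfra1 UMIs has no counterpart among the TO cells.

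The label of the cells was checked with genes outside the rule. Most genes of the stem-state list (22) and the progenitor list (13) were detected in members of every library. At 0 were Pax7 and Thy1 in TO replicate 1, Thy1 in TO replicate 2, T in testis replicate 1 and Pdx1 and Thy1 in testis replicate 2, and, of the progenitor list, Neurog3 in both TO libraries and Rarg in testis replicate 2. Detection alone does not check the label. Sertoli-chosen barcodes had 1 and 4 stem-state genes at 0 in the TOs and 6 and 11 in the testes. Of the progenitor genes, 1 and 1 were at 0 there in the TOs and 3 and 7 in the testes. The stem-state list summed to 1495 and 1724 CPM in TO members and 891 and 1358 CPM in testis members. In Sertoli-chosen barcodes it summed to 506 and 542 CPM in the TOs and 272 and 367 CPM in the testes. The progenitor list summed to 1246 and 1449 CPM in TO members and 1674 and 1843 CPM in testis members. In Sertoli-chosen barcodes it summed to 672 and 660 CPM in the TOs and 605 and 631 CPM in the testes. The progenitor list does not set members apart from differentiating spermatogonia, in which it summed to similar levels (below). Uchl1 had 275 CPM in the Sertoli-chosen barcodes of TO replicate 1. In members Id4 had 168, 210, 22.1 and 66.5 CPM, Etv5 had 105, 59.3, 49.1 and 120 CPM, Sall4 had 188, 189, 66.3 and 120 CPM, and Uchl1 had 298, 442, 528 and 592 CPM, in the order TO replicates 1 and 2 and testis replicates 1 and 2. The exceptions were 7 members with 0 UMIs of Id4, Etv5, Uchl1, Sall4, Sohlh1 and Lin28a, 3 in TO replicate 1, 3 in testis replicate 1 and 1 in testis replicate 2. Of these, 2 in testis replicate 1 stood apart, with 18402 and 16371 UMIs, of which mitochondrial genes took 0.0543% and 0.104% and spermatid markers 1466 and 128 UMIs, and their other genes go against the label. They met the rule, the first by 2 Gfra1 and 4 Lhx1 UMIs, and held 8.53% of the UMIs of that library's members. They were kept, and an alternative chosen after seeing the data left them out. Kit, the receptor that appears with differentiation, had a UMI in 11.1% of TO and 4.55% of testis members. Cells with 5 or more UMIs of 26 cell division genes made up 87.7% of TO and 90.9% of testis members. This share depends on depth, in which the groups differed, and does not check the label. Over all kept barcodes these genes summed to 632 and 553 CPM in the TOs and 1659 and 1371 CPM in the testes.

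Markers of other cells were found in members and differed between the groups. The 14 spermatid markers summed to 17.5 and 26.9 CPM in TO members, with 11 of the 14 at 0 in each library, and to 6597 and 3833 CPM in testis members. Without the 2 barcodes that stood apart, testis replicate 1 had 2936 CPM, and its other 64 members held at most 40 spermatid UMIs each, with a median of 15, against at most 46 and a median of 27 in testis replicate 2. In Sertoli-chosen barcodes of the testes these markers summed to 3612 and 4721 CPM. The most abundant was the protamine gene Prm1, at 0 in both TO libraries and 2160 and 1171 CPM in the testes (861 CPM in testis replicate 1 without the 2 barcodes). The 10 Sertoli markers summed to 1049 and 539 CPM in TO members and 253 and 366 CPM in testis members, led by the protease gene Ctsl. Of these markers Amh, which falls as Sertoli cells mature, was at 0 in all 4 libraries, while Aard, Clu, Cst12 and Cldn11 had 94, 79, 46 and 17 UMIs in the members of TO replicate 1. The 7 stromal markers summed to 372 and 248 CPM in TO members and 61.4 and 26.6 CPM in testis members, led by Sparc. Leydig markers gave 202, 64.6, 22.1 and 46.6 CPM, macrophage markers 174, 75.4, 2.45 and 6.65 CPM, myoid markers 161, 32.3, 93.3 and 0 CPM, endothelial markers 35.1, 43.1, 51.5 and 20 CPM, and spermatocyte markers 691, 846, 1173 and 1218 CPM in the same order of libraries.

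To ask how undifferentiated spermatogonia in TOs differ from those in the testis, the summed UMIs of the members were compared between the 2 TO and the 2 testis libraries. A gene was called when its edgeR adjusted p was below 0.01 and its fold change above 2. Of 6045 genes tested, 14 were higher in TO members (0.232% of the genes) and 314 were lower (5.19%), with a median log2 fold change of 0.05 over all tested genes. The groups did not overlap for any of these 328 genes (5.43% of the genes tested). Over all tested genes, the TO values were the upper pair for 29% and the lower pair for 19.7%. Without TO replicate 1, which held 64 of the 81 TO members, 0 genes were called, although 633 had an unadjusted p below 0.05. Without testis replicate 1, 5 genes were higher and 79 lower, and without testis replicate 2, 74 and 570. DESeq2 called 2 higher (Rpl22l1 and Plxdc2) and 160 lower. Without the 2 testis barcodes that stood apart, 15 genes were higher and 282 lower, 291 of them the same as with all members.

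Most lower genes were also abundant in other testis cells. For 293 of the 314, the other kept barcodes of at least 1 testis library carried as many or more CPM than the members did, and the 10 named for the largest fold were all of this kind: Gm9999, Gm3417, Tekt4, Gykl1, Fam209, Rbakdn, Pgk2, Tmem247, Fam24a and Tmco5. Pgk2, the phosphoglycerate kinase of meiotic and later germ cells, had a log2 fold change of -6.14 ± 0.81 (SE). Its size rests on almost no UMIs in TO members, which held 1.75 and 0 CPM. Spermatid RNA, measured above in testis members and in testis Sertoli-chosen barcodes, moved with these genes, and its part in them was not tested. The other 21 lower genes were below the members in the other kept barcodes of both testis libraries, as were 13 of the 14 higher genes in the TO libraries (all but Unc50). These 21 genes were picked out after their values were seen, and 20 of them were still called without the 2 barcodes that stood apart.

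Subtracting from each library a share of its profile over all kept barcodes, an alternative chosen after seeing the data, left 0 calls by edgeR, with 197 genes at an unadjusted p below 0.05. The share was set by stromal markers in the TOs (4.22% and 2.36%) and by spermatid markers in the testes (59.2% and 5.09%). Over all kept barcodes the spermatid markers summed to 11146 CPM in testis replicate 1 and 75336 CPM in testis replicate 2. The shares of the 2 testis libraries thus differ by this base as well as by the members' own levels. Without the 2 barcodes that stood apart the share was 26.3% in testis replicate 1. Again 0 genes were called, with 495 at an unadjusted p below 0.05. Stromal markers gave 3.55% and 2.79% in the testes, and with these in place of the spermatid markers 9 genes were higher and 252 lower, all 261 of them among the calls with all UMIs and 17 of them among the 21 genes. Which calls were left thus depended on the markers that set the share in the testes. With the first subtraction the log2 fold change, of genes whose values with all UMIs follow below, was 2.16 for Id4, 3.76 for Tmem158, -2.09 for Sohlh1, -2.93 for Sox3 and -3.12 for Ddit4.

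**Figure D3:**
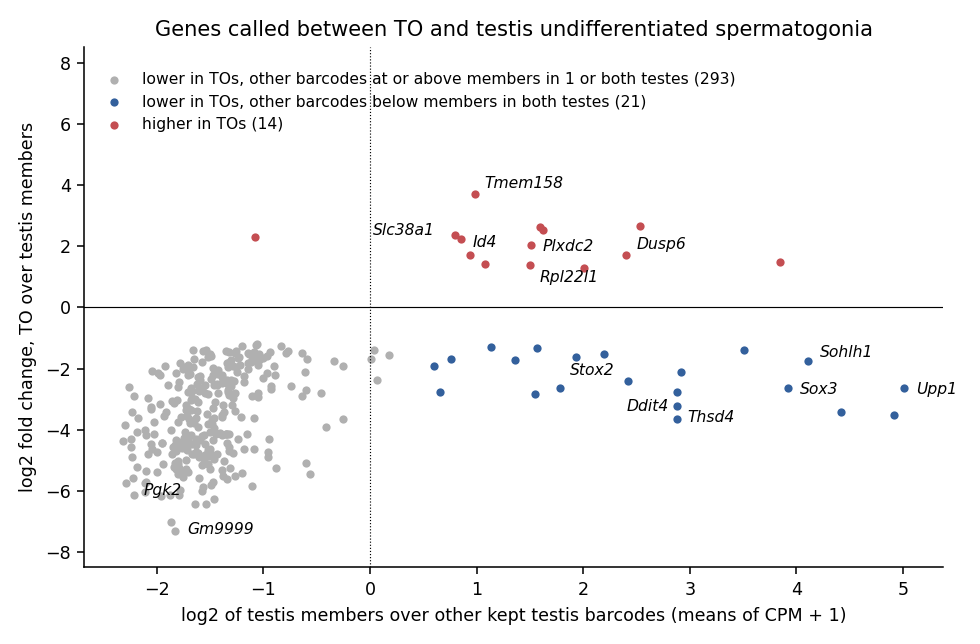
Log2 fold change of TO over testis members against the log2 ratio of testis members over the other kept testis barcodes (means of CPM + 1), for the 328 called genes. The 293 grey points lie at or left of 0 or close to it. Sohlh1, Sox3, Upp1 and Ddit4 lie among the 21 genes that are lower in TOs and higher in testis members than in the pooled other testis barcodes.

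Among the 14 stem-state genes tested, 1 was called, Id4, where 0.232% of all genes tested rose, and the median log2 fold change was 0.57 beside 0.05 over all genes. Id4, an inhibitor of basic helix-loop-helix (bHLH) factors and a mark of spermatogonial stem cells, had 168 and 210 CPM in TO members and 22.1 and 66.5 CPM in testis members. The TO values were the higher pair without overlap, and the log2 fold change was 2.24 ± 0.41 (SE, edgeR adjusted p = 0.00065). Leaving out 1 library gave 1.39 (without testis replicate 1) to 2.85 (without testis replicate 2), and DESeq2 did not call it (adjusted p = 0.015). Id4 had a UMI in 76.5% of TO and 19.3% of testis members, and in 38% and 7.95% after thinning to 2500 UMIs per cell. Sertoli-chosen barcodes held 42.1 and 52.8 CPM of Id4 in the TOs and 41.4 and 55.2 CPM in the testes, below the TO members and within the range of the testis members.

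The other stem-state genes were not called and went both ways. Tcl1, a co-activator of AKT, had 186 and 253 CPM in TOs and 73.6 and 93.2 CPM in testes (log2 fold change 1.29 ± 0.33 SE, edgeR adjusted p = 0.015). Egr4, a transcription factor that answers GDNF, had 54.4 and 167 CPM in TOs and 238 and 200 CPM in testes (-1.34 ± 0.40 SE, edgeR adjusted p = 0.038). Leaving out 1 library gave -2.17 to -0.54 for Egr4. Etv5, which maintains the stem cell state, differed by 0.16 ± 0.41 (SE), with overlapping libraries. Smoc2 and Egr2 had log2 fold changes of 1.09 and 1.36, Tspan8 and Plvap of 1.61 and 1.11 (0.60 to 2.46 and 0.63 to 1.36 when 1 library was left out), and Rhox10 of -1.29. Cd9, Itga6, Cdh1, Bmi1 and Pou3f1 lay between -0.51 and 0.61. Of these, all but Cdh1 turned sign when 1 library was left out. Cdh1 was tested in only 2 of these 4 fits (-0.32 and -0.11), and it reached 0.09 under another alternative. Cd9 ran from -0.28 to 1.65, Itga6 from -0.07 to 0.74, Bmi1 from -0.42 to 1.37 and Pou3f1 from -1.74 to 0.53. The genes with few UMIs, such as Eomes (8.77 and 21.5 CPM in TOs, 4.91 and 6.65 CPM in testes) and Pax7 (0 and 5.39 against 7.36 and 6.65 CPM), did not pass the filter on low counts.

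The progenitor genes leaned the other way, with a median log2 fold change of -0.72 over 11 tested genes. Of these, 4 fell in TO members and 0 rose, where 5.19% of all genes tested fell. Sohlh1, a bHLH factor that starts spermatogonial differentiation, had 47.4 and 91.6 CPM in TOs and 209 and 173 CPM in testes, without overlap, and a log2 fold change of -1.76 ± 0.36 (SE, edgeR adjusted p = 0.0019). Sox3, a transcription factor of committed progenitors, had 7.02 and 26.9 CPM against 73.6 and 73.2 CPM (-2.65 ± 0.56 SE, edgeR adjusted p = 0.0026). Upp1, which cleaves uridine, had 5.26 and 21.6 CPM against 51.5 and 66.5 CPM (-2.63 ± 0.63 SE, edgeR adjusted p = 0.0081). Ddit4, an inhibitor of mTORC1 signalling, had 7.02 and 26.9 CPM against 66.3 and 106 CPM (-2.77 ± 0.56 SE, edgeR adjusted p = 0.0019). In each of the 4, the 2 TO libraries were the lowest. None of the 4 was called by DESeq2 (adjusted p = 0.045, 0.096, 0.17 and 0.041 in the order above) or by edgeR without TO replicate 1 or without testis replicate 1. Without TO replicate 1 the log2 fold changes were -1.21, -1.56, -1.52 and -1.71, and without TO replicate 2 they were -2.17, -3.47, -3.50 and -3.62.

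Of the progenitor genes that were not called, Lin28a, a microRNA-blocking RNA-binding protein, had 33.3 and 16.2 CPM in TOs and 85.9 and 86.5 CPM in testes (log2 fold change -1.72 ± 0.45 SE, edgeR adjusted p = 0.016), and was called without the 2 testis barcodes that stood apart (-1.77, edgeR adjusted p = 0.0093). Sall4, a zinc finger factor of undifferentiated spermatogonia, had 1.03 ± 0.34 (SE, edgeR adjusted p = 0.065), and Uchl1, a ubiquitin hydrolase, had -0.72 ± 0.29 (SE, edgeR adjusted p = 0.15). Foxo1, Taf4b, Nr6a1 and Epcam had log2 fold changes between -0.48 and 0.54. Neurog3, a bHLH factor of progenitors, had 0 UMIs in both TO libraries, which allows up to 5.26 and 16.2 CPM, and 22.1 and 6.65 CPM in the testes.

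The 250 bases before the RefSeq start (build GRCm38.p6) of Id4 and Sohlh1 are shown because Id4, whose protein inhibits bHLH factors, and Sohlh1, whose protein is one, changed in opposite directions. The capitals mark CANNTG, the E-box to which bHLH factors bind, which reads the same on both strands. The Id4 stretch, chr13:48260866-48261115 on the plus strand, held 0 such motifs and the Sohlh1 stretch, chr2:25847249-25847498 on the minus strand, held 5, of which 3 read CACGTG and 2 CAGGTG. At least 1 was present in 66.2% and at least 5 in 1.15% of 32851 stretches of this length before RefSeq starts, and a match describes the letters only.
Id4: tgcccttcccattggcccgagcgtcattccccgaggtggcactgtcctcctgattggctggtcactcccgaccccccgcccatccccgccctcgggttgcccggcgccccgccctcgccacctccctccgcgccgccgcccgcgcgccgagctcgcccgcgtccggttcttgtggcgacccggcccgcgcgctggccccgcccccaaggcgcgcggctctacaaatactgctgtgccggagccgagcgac
Sohlh1: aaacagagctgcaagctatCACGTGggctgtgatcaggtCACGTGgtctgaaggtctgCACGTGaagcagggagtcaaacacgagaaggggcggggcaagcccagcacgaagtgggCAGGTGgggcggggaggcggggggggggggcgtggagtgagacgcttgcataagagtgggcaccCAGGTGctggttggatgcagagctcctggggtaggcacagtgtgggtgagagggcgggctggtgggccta
In the GENCODE vM21 annotation Id4 is a protein-coding gene at chr13:48261228-48266026, overlapped on the other strand by A330033J07Rik and Gm49291, whose reads could not be told apart from its own if strand was not used in counting. Sohlh1 lies at chr2:25842995-25847248, Sox3 at chrX:60891366-60893430, Upp1 at chr11:9118103-9136170 and Ddit4 at chr10:59949669-59951834, and no annotated gene overlapped these 4.

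Splitting the members by the presence of a Gfra1 UMI, a step chosen after seeing the data, gave the levels below as a description. Gfra1 is a gene of the rule, so members without it had met the rule by the other genes, Nanos3 among them, and the split supports nothing on its own. The 48 testis members with a Gfra1 UMI (32 and 16 by library) had medians of 4928.5 and 6230 UMIs per cell, and the 40 without (34 and 6) had 6310 and 8612.5. Sohlh1 had 107 and 71.7 CPM in testis members with Gfra1 and 287 and 361 CPM in those without, beside 47.8 and 96.5 CPM in TO members with Gfra1. Sox3 had 16.9 and 10.2 CPM with Gfra1 and 117 and 190 CPM without, beside 7.08 and 28.4 CPM in the TOs. Upp1 had 16.9 and 30.7 CPM with and 78.2 and 133 CPM without, beside 5.31 and 17 CPM, and Ddit4 had 16.9 and 41 CPM with and 104 and 228 CPM without, beside 7.08 and 28.4 CPM. All 10 Neurog3 UMIs of the testis members were in cells without Gfra1. For these 4 genes the TO and testis members with Gfra1 overlapped, and the testis members without Gfra1 lay above both.

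Id4 did not follow this pattern. It had 39.5 and 82 CPM in testis members with Gfra1 and 8.69 and 38 CPM in those without, against 168 and 210 CPM in TO members with Gfra1, so the TO libraries were still the highest. With only members that had a Gfra1 UMI, chosen again by a gene of the rule and so given with no test, the log2 fold change of Id4 was 1.58 and that of Sohlh1 was -0.70, while Sox3, Upp1 and Ddit4 did not pass the filter on low counts. Only 2 TO members lacked a Gfra1 UMI, so that the comparison cannot be made on the other side.

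**Figure D4:**
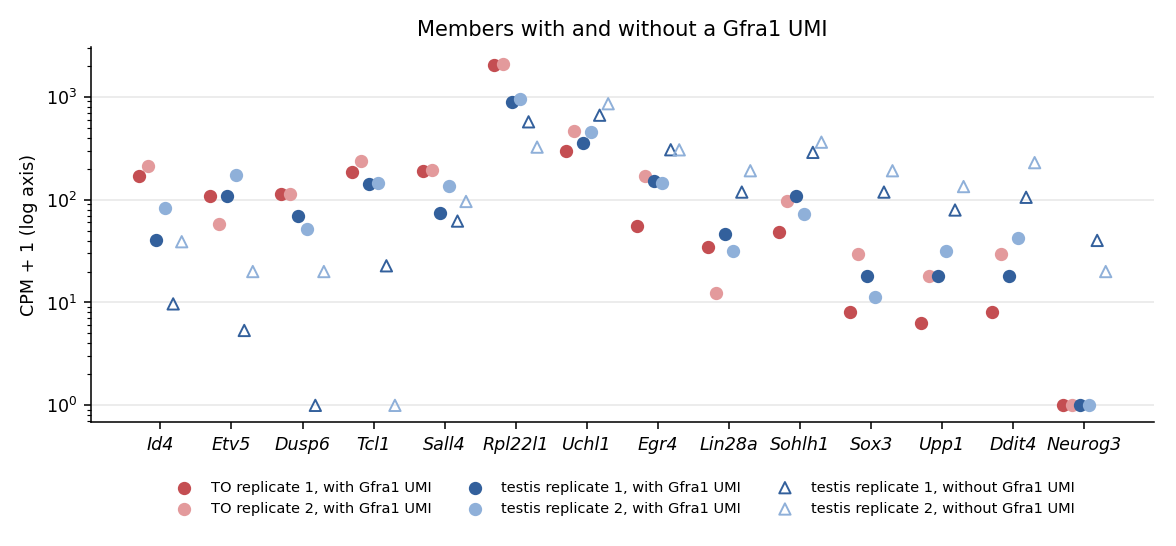
CPM plus 1 on a log axis for 14 genes in members with a Gfra1 UMI (filled circles; TO and testis) and in testis members without one (open triangles), 1 point per library. Sohlh1, Sox3, Upp1 and Ddit4 are highest in the open triangles, Etv5 and Dusp6 are highest in the filled circles, and Id4 is highest in the TO circles.

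Of the 8 GDNF and FGF response genes tested, 2 rose in TO members where 0.232% of all genes tested did, Dusp6 and Id4, and 0 fell. Id4 is the call of the stem-state list counted again, and the median log2 fold change was 0.62. Dusp6, an ERK phosphatase induced by FGF and GDNF signalling, had 116 and 119 CPM in TO members and 29.5 and 39.9 CPM in testis members, without overlap (1.70 ± 0.40 SE, edgeR adjusted p = 0.0077). The call was lost with DESeq2 (adjusted p = 0.20) and, by edgeR, with members thinned to 2500 UMIs each (1.08, adjusted p = 0.46). In Sertoli-chosen barcodes Dusp6 had 63.1 and 60.2 CPM in the TOs and 16 and 32.9 CPM in the testes. In testis members with a Gfra1 UMI it had 67.7 and 51.2 CPM, and the log2 fold change among members with Gfra1 was 0.73. Spred1, Sdc4, Fgfr2 and the cyclin gene Ccnd2 were not called, with log2 fold changes of 0.79, 0.26, 0.76 and 0.47. Etv5 and Egr4, also of this list, were not called either, with 0.16 and -1.34. Leaving out 1 library gave -0.13 to 1.65 for Spred1.

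The other genes that rose in TO members had varied roles. Rpl22l1, a paralog of the ribosomal protein gene Rpl22, had 2027 and 2015 CPM in the TOs and 704 and 725 CPM in the testes, so replicates lay close together and far from the other group (log2 fold change 1.40 ± 0.28 SE, edgeR adjusted p = 0.0016). It overlaps Gm33051 on the other strand, and reads of near-identical copies may be split. The 20 ribosomal and translation genes of the list had 0 called genes, 3 at an unadjusted p below 0.05, and a median of -0.04. Slc38a1, a glutamine transporter, had 73.7 and 102 CPM against 9.82 and 26.6 CPM (2.36 ± 0.54 SE, edgeR adjusted p = 0.006), and 1.56 without testis replicate 1. Tmem158, a membrane protein induced by RAS signalling, had 79 and 86.2 CPM against 4.91 and 6.65 CPM (3.70 ± 0.62 SE, edgeR adjusted p = 0.00026). Plxdc2 had 323 and 264 CPM against 56.4 and 86.5 CPM (2.04 ± 0.33 SE, edgeR adjusted p = 0.00017), and it was also abundant in the other kept TO barcodes, at 153 and 214 CPM. Hs3st1, a heparan sulfate sulfotransferase, had 340 and 286 CPM against 93.3 and 126 CPM (1.47 ± 0.31 SE, edgeR adjusted p = 0.0023). The rest were the receptor phosphatase gene Ptprg, Mpzl1, Lonp2, Unc50, Trim6 and the long noncoding RNAs Gm26760 and Gm4316, with log2 fold changes from 1.29 to 2.67. Leaving out 1 library gave 1.51 to 2.80 for Unc50, 2.37 to 3.33 for Gm26760 and 2.32 to 4.12 for Gm4316.

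Besides the progenitor genes, the 21 genes that were lower in TO members and above the other kept barcodes in testis members had no common list. The other kept barcodes pool many cell types. The 21 genes are thus not set apart from differentiating spermatogonia, in which Sohlh1 was as high in the testes (below). Psme1, a subunit of the proteasome activator PA28, had 63.2 and 70 CPM in TOs and 189 and 146 CPM in testes, and Psmb10, an immunoproteasome subunit, had 21.1 and 32.3 CPM against 123 and 59.9 CPM. Cdk6 had 5.26 and 10.8 CPM against 49.1 and 39.9 CPM, and Cdk14 had 38.6 and 37.7 CPM against 110 and 126 CPM. The libraries did not overlap for any of these 4, and DESeq2 called none of them (adjusted p from 0.099 to 0.20). Stox2 had 47.4 and 43.1 CPM against 277 and 146 CPM (log2 fold change -2.40), and Thsd4 had 14 and 10.8 CPM against 147 and 66.5 CPM (-3.24), and these were the 2 of the 21 that DESeq2 also called. Leaving out 1 library gave -2.78 to -1.73 for Stox2 and -3.65 to -2.39 for Thsd4, and among members with a Gfra1 UMI, given with no test, Stox2 had -0.98. The others were Epb41l4a, Aff3, Ccdc6, Igsf8, Smim13, Phlda2, Abhd11, Lbhd2, Wdr18, Gm47283 and Higd2a.

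Few genes of the remaining lists were called, beside 5.19% lower among all genes tested. Of 18 piRNA and germline genes tested, 1 fell, Mael, a piRNA pathway gene (log2 fold change -1.41), and of 20 cell division genes 2 fell, Ccnb2 and Birc5 (-1.93 and -1.69), with a list median of -0.50. Of 11 glycolysis genes 2 fell, Hk1 and Eno1 (-2.78 and -1.57, and -3.30 to -1.43 and -1.92 to -0.90 when 1 library was left out), of 7 spermatocyte markers 1 fell, Ybx2 (-4.44), of 4 differentiating genes 1 fell, Dmrtb1 (-4.67), and of the spermatid markers tested 2 of 2 fell, Spaca1 and Ccer1 (-3.61 and -4.81). All 9 were among the 293 genes that were as high or higher in other testis barcodes, and the part of free RNA in their fall was not tested gene by gene. An unadjusted p below 0.05 was found for 20.2% of all genes tested. By edgeR 0 genes were called among the 6 hypoxia-response, 10 heat shock, 9 amino acid response, 10 p53 target and apoptosis, 2 immediate-early, and 8 adhesion and niche receptor genes tested, with 0, 1, 5, 2, 0 and 1 genes at an unadjusted p below 0.05. For 3, 4, 3, 5, 14 and 5 genes of these lists the other barcodes of a group held at least 5 times the members' level, which barred them from the test. The 19 immediate-early genes, most of them barred in this way, summed to 1378 and 921 CPM in TO members and 746 and 699 CPM in testis members, led by Jund. Of the 16 retinoic acid genes 1 was tested, Crabp1, a retinoic acid binding protein, at -1.14 ± 0.45 (SE, edgeR adjusted p = 0.14).

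To place the members beside the next stage, they were set against differentiating spermatogonia of the same libraries, chosen by at least 3 UMIs of Kit and Stra8, at most 1 UMI of the 6 genes and the same germ cell conditions. There were 129, 51, 61 and 28 of these cells in TO replicates 1 and 2 and testis replicates 1 and 2. Since both classes were chosen by genes measured in the same cells, the calls describe the classes and do not test them, and the genes of both rules were left out. Of 8976 genes, 586 (6.53%) were higher and 434 (4.84%) lower in undifferentiated spermatogonia, with library as a block.

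Of the 14 stem-state genes tested, 10 were higher in undifferentiated spermatogonia and 0 lower, and of 11 GDNF and FGF response genes 8 were higher and 0 lower. Of 12 progenitor genes tested, 2 were higher (Upp1 and Sall4) and 0 lower, with a median log2 fold change of -0.25. The progenitor list summed to 1246, 1449, 1674 and 1843 CPM in undifferentiated cells and 1518, 1839, 1868 and 1813 CPM in differentiating cells. Tcl1 had 186, 253, 73.6 and 93.2 CPM in undifferentiated cells and 0.948, 0, 0 and 0 CPM in differentiating cells, in the order of libraries above. Among the genes with the largest folds were also Kcnc2, a potassium channel gene (765, 528, 258 and 426 CPM against 0.948, 11.9, 0 and 0), Nefm, a neurofilament gene, Foxc2, a forkhead factor gene, and Egr2. All 5 were higher in undifferentiated cells of each library. Of 9 differentiating genes tested, 6 were lower and 1, Ccnd2, was higher, and of 26 cell division genes 15 were lower and 0 higher. Markers of Leydig cells, the steroid-making cells between the tubules, moved with the class: all 5 tested were lower in undifferentiated cells, and the list summed to 202, 64.6, 22.1 and 46.6 CPM in these and to 1735, 86, 47.3 and 976 CPM in differentiating cells. Of 5 stromal markers tested, Sparc was lower as well, and of 8 spermatocyte markers Sycp3 and Hormad1 were. The macrophage marker Lyz2, the 1 of its list tested, was higher in undifferentiated cells (log2 fold change 1.78), with 154, 59.3, 2.45 and 0 CPM against 32.2, 38.2, 0 and 0 CPM. The part of these cells in the comparison was not tested. Cell division genes summed to 1302, 1309, 1583 and 1990 CPM in undifferentiated cells and 3743, 3478, 3224 and 3368 CPM in differentiating cells. The lower genes with the largest folds were Prss50, at 0 UMIs in all 4 sums of undifferentiated cells and 88.2, 78.8, 86.3 and 152 CPM in differentiating cells, and Nexmif, Hist1h2aa, Esx1 and Meioc, a meiotic regulator.

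The difference between TO and testis was not the same in the 2 classes for every gene. The interaction of class and condition was called for 19 of 8976 genes (0.212%), 11 (0.123%) higher and 8 (0.0891%) lower in undifferentiated cells of the TOs than both effects together give. Without the 2 testis barcodes that stood apart it was called for 17 genes higher and 13 lower, 18 of them the same. The calls rested on replicate 1 of both groups: 2 of the 19 were shared by the fit without TO replicate 1 (Rpl22l1 and Tubb4b), 1 by the fit without testis replicate 1 (Tubb4b) and 4 by DESeq2. Rpl22l1 had the lowest p, with a log2 difference of 1.59 ± 0.25 (SE, edgeR adjusted p = 0.00049). In differentiating cells it had 241 and 184 CPM in the TOs and 278 and 170 CPM in the testes, so that these libraries overlapped there, and without testis replicate 1 the adjusted p by edgeR was 0.24. Slc38a1 had 0.948 and 0 CPM in differentiating cells of the TOs and 8.35 and 23.4 CPM in those of the testes. Its log2 difference was 6.14 ± 1.27 (SE, edgeR adjusted p = 0.0084), a size that rests on 1 and 0 UMIs in the differentiating cells of the TOs. Thsd4 had 64.5 and 40.6 CPM in differentiating cells of the TOs and 55.7 and 23.4 CPM in those of the testes, and its log2 difference was -3.56 ± 0.58 (SE). Sohlh1 was level between the classes in the testes (209 and 173 against 217 and 193 CPM) and lower in undifferentiated cells in the TOs (47.4 and 91.6 against 149 and 222 CPM), with a log2 difference of -1.45 (edgeR adjusted p = 0.026), short of a call. For Id4 the log2 difference was 1.26 (edgeR adjusted p = 0.74), so a change particular to undifferentiated spermatogonia was not shown. Tubb4b, Cfap299 and Chn2 completed the 5 genes of lowest p, and all 3 were more abundant in other testis barcodes than in testis members in at least 1 testis library.

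**Figure D5:**
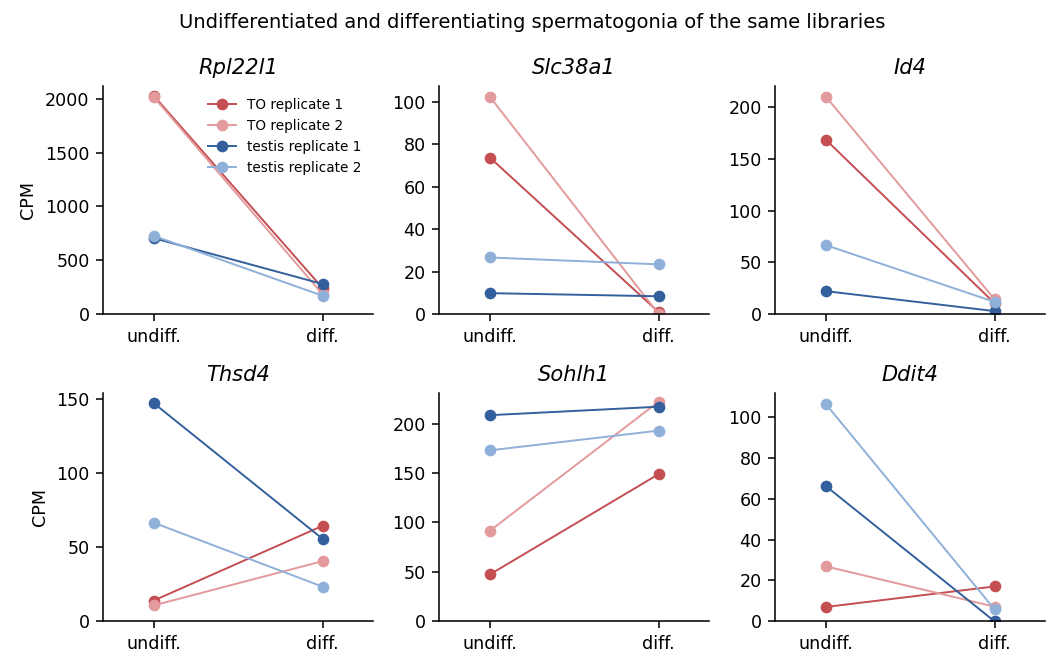
CPM in undifferentiated and differentiating spermatogonia of the same library, joined by a line, for 6 genes. The TO lines of Rpl22l1 fall from 2027 and 2015 to 241 and 184, the testis lines from 704 and 725 to 278 and 170, and Sohlh1 rises from undifferentiated to differentiating cells most clearly in the TOs.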

How the data were processed

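Droplet 3' single-cell libraries of TOs and testes (2 each) were used. The authors deposited UMI counts per gene and barcode, made with Cell Ranger 7.1.0 and mm10 per the labels' processing notes, with no normalization. Whether counting used strand or introns is not given in the sources used here. The members and all gene lists were chosen with earlier results of these data known. Barcodes, not sorted further, were filtered by the study's limits, and no doublets were removed. Counts were summed over members per library and tested with edgeR 4.0.16 in R 4.3.3 (TMM, filterByExpr, quasi-likelihood F test, Benjamini-Hochberg adjustment). Library sizes were counted over all genes, and the fit used only the genes tested. A further 214 of 6259 genes were left out because the other kept barcodes of either group held at least 5 times the members' CPM, and the 12 genes of the rule were not tested. Sertoli-chosen barcodes had at least 3 UMIs of Sox9, Cldn11, Wt1 and Rhox8 with 2 detected and at least 2 of Vim. Floors for 0 counts are 3 UMIs. Library shares were compared by exact permutation.

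Named genes were the 10 called genes of largest fold per direction with a mean of at least 50 CPM, all tested genes of the stem-state, progenitor, differentiating, and GDNF and FGF response lists, and called genes of other lists. For the stage comparison they were the 5 of largest fold per direction, and for the interaction the 5 of lowest p. Gene positions came from GENCODE vM21 (99.6% of 32285 gene IDs matched) and sequences from RefSeq. DESeq2 1.42.0, other normalizations, filters, thresholds, thinning, Scrublet (scanpy 1.11.5) and libraries left out were tried as alternatives. The fits were tested on simulated data. The value of 1 gene called in the interaction is not reported here.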

Additional observations from a re-analysis of the deposited data

Results flagged for a closer look

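The log2 fold change of undifferentiated over differentiating spermatogonia differed between TOs and testes for 19 genes by the test of the difference itself (edgeR adjusted p below 0.01), and these were marked for that reason. It was higher in the TOs for Rpl22l1 (1.59), Ccnd2 (2.02), Esrp1 (2.12), Pbx3 (2.49), Slc38a1 (6.14), Sdk1 (1.95), Nipbl (1.75), Cdc42ep3 (3.06), Chn2 (3.02), Cfap299 (3.46) and Cfap45 (4.11), each value being the TO minus testis difference on the log2 scale. The genes for which it was lower in the TOs included Tubb4b (-1.36), Tmsb10 (-1.02), Nhp2 (-1.83), Cdca3 (-2.51), Thsd4 (-3.56), Psme1 (-1.90) and Osbp2 (-4.76). The sizes of some rest on few UMIs: differentiating cells of the TOs held 1 and 0 UMIs of Slc38a1, 1 and 1 of Cfap45 and 6 and 2 of Cfap299, and TO members held 1 and 0 of Osbp2.

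Several of these genes were abundant in the other testis barcodes: Cfap45 had 339 and 183 CPM there against 140 and 66.5 CPM in testis members, and Osbp2 had 122 and 304 CPM against 78.5 and 66.5 CPM. Esrp1, an epithelial splicing factor gene, had 5.67, 2.59, 8.67 and 5.88 CPM in the other barcodes of the 4 libraries, and 179 and 129 CPM in TO members against 29.4 and 38.2 CPM in differentiating cells of the TOs. Ccnd2 had 49.3 and 52.6 CPM in differentiating cells of the TOs and 198 and 40.9 CPM in those of the testes, and without testis replicate 1 its difference was 0.29 (edgeR adjusted p = 0.96). Most of the 19 genes also lost their call without testis replicate 1 or TO replicate 1, as given above. Without testis replicate 1, however, the differences of the genes other than Ccnd2 moved less. That of Rpl22l1 was 1.05, and those of Chn2, Esrp1 and Thsd4 were 2.43, 1.99 and -3.68. The part of free RNA in these differences was not tested.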

How the results depend on the processing

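The number of genes higher and lower in TO members, 14 and 314, depended on several choices. It was 2 and 160 with DESeq2, 2 and 10 when genes were left out from 2 times the members' level, 9 and 173 with sums thinned to the smallest library, and 286 and 1918 with no upper limits on genes and UMIs, where the added barcodes gave 21.5% and 27.1% of the UMIs in TOs and 50% and 70.5% in testes. The higher genes numbered 46 with every gene of any count, 65 at an adjusted p below 0.05, 7 without Kit-positive members and 9 without Scrublet doublets. Among alternatives chosen after seeing the data, background subtraction (by stromal markers in TOs and spermatid markers in testes) left 0 and 0, thinning members to 2500 UMIs 6 and 91, and stromal markers in every library as the base of the subtraction 9 and 252. Members with a Gfra1 UMI gave 2 and 212, which is no check of the calls because Gfra1 is a gene of the rule. Leaving out barcodes under 1% mitochondrial UMIs, which removed 2 deep testis members, gave 15 and 282, and with background subtraction as well 0 and 0. Leaving out 1 library gave 0 to 74 higher and 0 to 570 lower genes.

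With the replicate number as a block, 40 genes were higher and 371 lower. The numbers share no stated source, and deviations of same-numbered libraries correlated at 0.107 over 6045 genes with only 2 pairs, so the pairing was not used.

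For undifferentiated against differentiating cells, 586 higher and 434 lower became 357 and 158 with DESeq2, 938 and 167 with no upper limits, and 118 and 48 without the library block. Leaving out 1 library gave 404 to 665 and 228 to 573. The interaction, 11 higher and 8 lower, became 1 and 3 with DESeq2, 19 and 21 with every gene of any count, 43 and 29 at an adjusted p below 0.05, and 17 and 13 without barcodes under 1% mitochondrial UMIs. Leaving out 1 library gave 0 to 25 and 1 to 22. The share of members differed by 3.44 percentage points with germ cells as denominator and by -0.02 with kept barcodes. It differed by -0.38 with kept barcodes of at least 1% mitochondrial UMIs (means 0.393% in TOs and 0.768% in testes), and by -0.23 to 0.18 when 1 library was left out. The 1% limit left 10579 and 9386 of the 10759 and 9463 kept TO barcodes. In the testes it left 5784 and 5116 of 10804 and 10458, so the base of the share shrank mainly there. The causes of these changes were not tested. No called gene among those named changed direction under any alternative run. The planned background subtraction by spermatid markers in both groups was not run, because these markers in TO members stood at 258% and 227% of their level over all kept TO barcodes. Depth limits genes of few UMIs, since 3 UMIs are 20 CPM in the smallest sum.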

Other observations

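Kcnc2, Foxc2 and Nefm, which marked undifferentiated against differentiating cells in every library, were compared between TO and testis members too. Kcnc2 had 765 and 528 CPM in TOs and 258 and 426 CPM in testes, and Foxc2 had 105 and 102 CPM against 31.9 and 66.5 CPM. Neither was called (edgeR adjusted p = 0.082 and 0.098), although the TO values were the higher pair for each. Nefm had 68.4 and 59.3 CPM against 36.8 and 39.9 CPM (edgeR adjusted p = 0.45). Testis replicate 2 had 72.7% of its members with a Gfra1 UMI and testis replicate 1 had 48.5%, so the members of the testis libraries were not alike in the genes by which they met the rule.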
